A study of Mus musculus with 2 samples.

Results

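R-loop peaks were examined at 10 imprinted locus genes of the mouse in primary neural stem/progenitor cells (NSPCs). They are H19, Igf2, Igf2r, Meg3, Snrpn, Ube3a, Kcnq1ot1, Peg3, Cdkn1c and Grb10, chosen by their symbol in the GENCODE M1 annotation of the mm9 genome. Of these 10 genes, 9 are annotated there among 37273 genes, and Kcnq1ot1 was placed on mm9 by its promoter sequence and is given apart from the counts. A peak was assigned to a gene when it overlapped the annotated gene by at least 1 bp or lay within 10 kb of it. By this rule 10 of the 22132 R-loop peaks belonged to the 9 genes, and 5 of these 10 overlapped a gene.

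The cells came from the frontal brain of C57BL/6 mice at postnatal day 7. Per the study's methods they were exposed to 0.5 μM aphidicolin, a DNA polymerase inhibitor that causes mild replication stress, for 48 h, while the sample labels name no treatment. RNA:DNA hybrids were recovered from restriction-digested DNA with the S9.6 antibody and sequenced (DRIP-seq). The values below come from 1 list of peak positions without scores, so that no value has a replicate error, no test between conditions was made, and the sequencing depth behind a peak is unknown. All cells shared this strain, age and treatment, and the input library was not analysed here.

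Imprinted genes are expressed mainly from the copy inherited from one parent. They lie in clusters governed by imprinting control regions, stretches of CpG-rich DNA that are methylated on one parental copy. Several clusters also hold long noncoding RNAs, some of which run antisense to a protein-coding gene and silence it on the same copy. R-loops are structures in which a transcript pairs with its template and displaces the other DNA strand, and G-rich transcripts over CpG islands are known to favour them. A peak in these data comes from both parental copies together and carries no strand, so that neither the copy nor the transcript behind it can be named.

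The first sequences shown lie at Peg3, a paternally expressed zinc finger gene on the minus strand of chromosome 7 (ENSMUSG00000002265, chr7:6656603-6683132). Its control region is known for a tandem array of binding sites of the transcription factor YY1 in intron 1. The stretch of 150 bases with the most matches to the YY1 motif GCCATNTT is shown to make this array visible, 5′ to 3′ on the strand of the gene, with the 3 matches in capitals. The bases between the RefSeq starts of Peg3 and of Usp29, which run in opposite directions from here, are shown because they lie wholly inside an R-loop peak, with runs of 3 or more G in capitals.
Peg3 intron 1, chr7:6680554-6680703, minus strand: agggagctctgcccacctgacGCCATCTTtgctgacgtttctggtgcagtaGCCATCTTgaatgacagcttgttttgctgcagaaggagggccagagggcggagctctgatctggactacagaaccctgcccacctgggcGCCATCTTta
Peg3 to Usp29 starts, chr7:6683131-6683293, minus strand: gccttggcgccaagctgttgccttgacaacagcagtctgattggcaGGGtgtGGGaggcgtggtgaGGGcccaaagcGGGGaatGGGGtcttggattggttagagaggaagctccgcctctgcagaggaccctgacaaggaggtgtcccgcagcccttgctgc

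At the other gene whose start lay in a peak, Ube3a (ENSMUSG00000025326, chr7:66484122-66562097, plus strand), the 150 bases before the annotated start all lay in the peak. Ube3a encodes a ubiquitin ligase that neurons express from the maternal copy. The bases are shown on the strand of the gene with the 21 CG dinucleotides in capitals, the feature by which CpG islands are recognised.
Ube3a before the start, chr7:66483972-66484121, plus strand: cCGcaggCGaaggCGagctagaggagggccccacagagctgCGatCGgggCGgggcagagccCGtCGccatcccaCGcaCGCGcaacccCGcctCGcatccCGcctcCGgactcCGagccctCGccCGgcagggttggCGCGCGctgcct

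Of the 8 peaks away from starts, 5 are shown here, leaving out the one inside Peg3 shown above, the one near Igf2 and the fragment of 107 bp upstream of Igf2r. In each, the 60 bases where G most outnumbered C, on whichever strand, are shown, with runs of 3 or more G in capitals. They show on which strand the G-rich sequence lies. It was the strand of the gene in both peaks inside Igf2r and in the peak upstream of Peg3, and the opposite strand in the peaks downstream of Ube3a. Among those left out, it was the strand of the gene in the Peg3 peak and the opposite strand in the Igf2r fragment. In that fragment the 60 bases held 20 G and 8 C and no run of 3 G. In the peaks over starts, such bases lay on the strand of the gene at Peg3 (31 G and 6 C). At Ube3a they lay on the opposite strand (35 G and 11 C).
Igf2r intron 1, chr17:12950634-12950693, minus strand: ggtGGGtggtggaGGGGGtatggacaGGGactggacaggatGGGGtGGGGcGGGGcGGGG
Igf2r intron 5, chr17:12927181-12927240, minus strand: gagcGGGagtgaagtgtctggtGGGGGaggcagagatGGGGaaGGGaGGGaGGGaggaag
Peg3 upstream, chr7:6687659-6687718, minus strand: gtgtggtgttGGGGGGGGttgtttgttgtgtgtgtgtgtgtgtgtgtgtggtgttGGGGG
Ube3a downstream, first peak, chr7:66570172-66570231, minus strand: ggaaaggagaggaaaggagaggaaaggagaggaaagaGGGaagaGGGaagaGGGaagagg
Ube3a downstream, second peak, chr7:66570629-66570688, minus strand: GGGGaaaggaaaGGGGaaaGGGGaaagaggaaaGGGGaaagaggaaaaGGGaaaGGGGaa

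R-loop peaks overlapped 3 of the 9 genes, namely Igf2r, Ube3a and Peg3, compared to 27.1% of all annotated genes. Igf2 had a peak nearby without an overlap, which brought the genes with a peak in or within 10 kb to 4 of 9, compared to 39.8% of all genes. The start lay in a peak at 2 of the 9 genes, Ube3a and Peg3, compared to 11.0% of all genes. A CpG island lay within 1 kb of the start, the outermost annotated 5′ base, of 7 of the 9 genes, all but Igf2 and Snrpn. Of these 7 starts, 2 were in a peak. Among all 19799 genes with such an island, 18.6% had their start in a peak. Igf2 and Snrpn have other starts in RefSeq with an island within 1 kb, and none of those lay in a peak. All of the 9 genes but H19 and Meg3 are protein-coding. Of 22367 protein-coding genes, 8858 overlapped a peak, 11464 had one in or within 10 kb and 3325 had their start in one. With 9 genes, these shares are counts for description and set no member apart from other genes.

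Genes with peaks were not the shorter ones. Both genes under 10 kb, H19 and Cdkn1c, lacked a peak, in a length class where 12.6% of 22173 genes had one. Between 10 and 50 kb, Peg3 had peaks while Igf2 and Meg3 did not overlap any, and 43.3% of 9924 genes in this class did. Between 50 and 200 kb, Igf2r and Ube3a had peaks while Snrpn and Grb10 had none, and 56.5% of 4174 genes did. The share of the gene covered by peaks was 14.2% for Peg3, 7.83% for Igf2r and 0.427% for Ube3a, with a median of 0 over the 9 genes. The 3 genes with a peak had a median of 7.83%, compared to 11.6% over all 10116 genes with a peak.

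**Figure D1:**
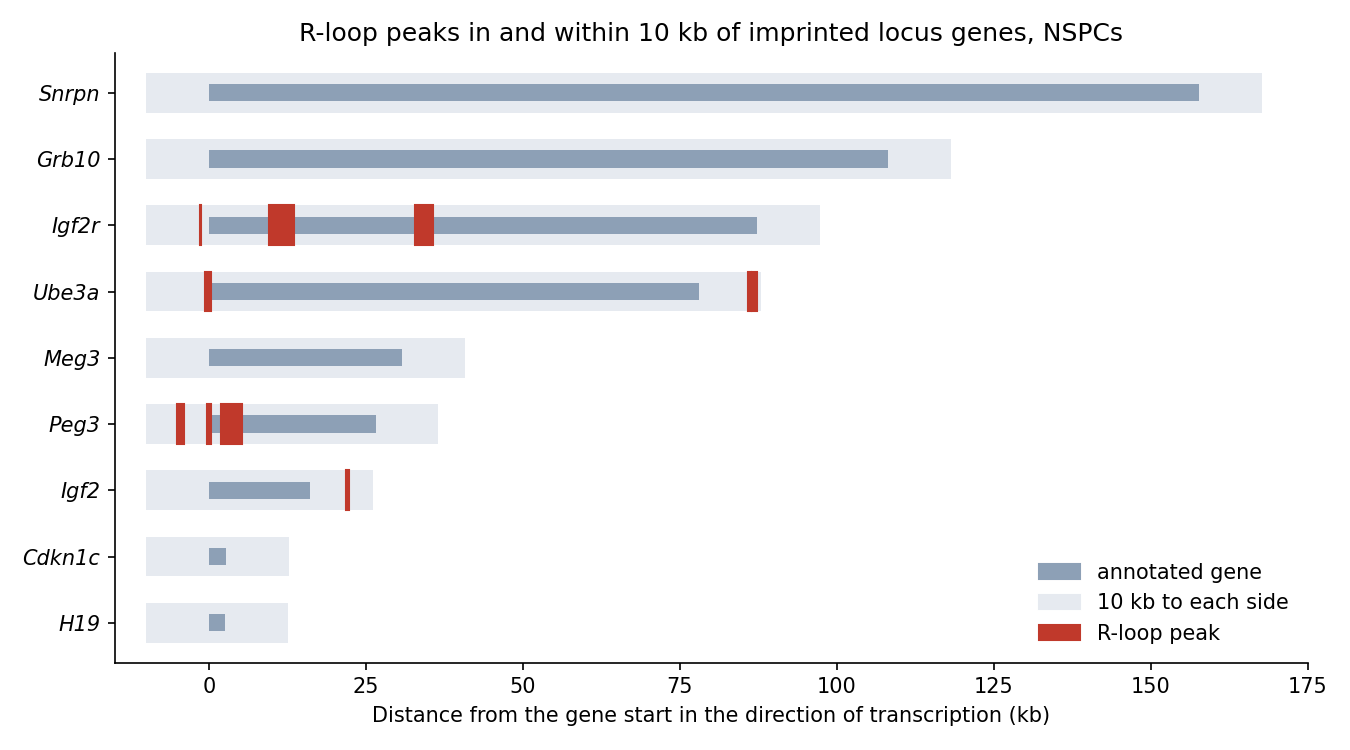
Map of the 9 annotated genes with each gene drawn to scale from its start (x axis, kb in the direction of transcription), its flanks of 10 kb in light grey and R-loop peaks in red. Peaks are drawn at Igf2r, Ube3a, Peg3 and Igf2 only, and the starts of Ube3a and Peg3 lie in a peak.

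Peg3 had the largest share of its length in peaks among the 9 genes. The first of its 3 peaks (chr7:6682809-6683428, 0.62 kb) ran from -0.296 to 0.323 kb relative to the start and held exon 1. Its GC content of 61.9% was higher than that of 96.6% of all peaks, and it held a CpG island. RefSeq places the starts of Peg3 and of Usp29, a paternally expressed ubiquitin protease gene, at 6683130 and 6683294, and both lay in this peak. GENCODE M1 annotates only a 2.61 kb Usp29 at a distance of 41.3 kb from its nearest peak, and its count therefore holds no start in a peak. The motif TGCCGC, known to be bound by the imprint maintenance factor ZFP57 when methylated, occurred 2 times in this peak on either strand. Of 3569 peaks with 80 to 125% of this length, 34 (0.953%) held as many matches and 6.70% held any. These peaks were matched in length but not in GC content, and the motif itself is GC-rich. Whether the count goes beyond the base composition of the peak was not tested.

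The second peak in Peg3 (chr7:6677822-6681253, 3.43 kb) began 1.88 kb into the gene and spanned the end of intron 1, exon 2 and the beginning of intron 2 of the 9-exon transcript Peg3-001. It was longer than 80.8% of all peaks, and its GC content of 48.2% was close to the median of 48.7% over all peaks. The YY1 motif GCCATNTT, searched on both strands, had 8 matches in this peak, which is 2.33 per kb compared to 0.18 per kb over all peaks. All 8 were on the strand of Peg3 and lay between 1963 and 3113 bp from the start, in intron 1. Of 2839 peaks with 80 to 125% of its length, 1293 (45.5%) held at least 1 match, and 1 (0.0352%), which was this peak itself, held 8 or more. The array was known beforehand and the motif was chosen after values were seen. This rank therefore describes the known sequence and is not a test. The match is one of letters only, and binding of YY1 was not measured.

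The third peak (chr7:6687063-6688187, 1.12 kb) lay 3.93 kb upstream of Peg3. Its GC skew on the strand of the gene, the difference between G and C over their sum, was 0.713. The shown stretch of this peak is made of G and T repeats without a single C. Whether reads in such repeats were placed as reliably as elsewhere was not tested.

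Ube3a had 1 peak over its start and none in the rest of its 78 kb. The peak (chr7:66483436-66484454, 1.02 kb) reached from -0.686 to 0.332 kb relative to the start and covered part of exon 1. It was rich in GC at 59.7%, higher than 94.7% of all peaks, and its ratio of observed over expected CpG was 0.851 compared to a median of 0.212 over all peaks. Its GC skew on the strand of the gene was -0.122, which means more C than G. Each motif, GCCATNTT and TGCCGC, had 1 match in the peak. Of peaks of like length, not matched in GC content, 16.4% and 15.5% held any. The GC-rich sequence extended beyond the downstream edge of the peak, with its maximum of 75.4% over 300 bp at 0.5 kb from the start.

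Downstream of Ube3a lay a pair of short peaks, 7.87 and 8.53 kb past the end of the gene (chr7:66569962-66570424, 0.463 kb, and chr7:66570629-66571343, 0.715 kb). Their GC contents of 40.8% and 38.5% were higher than those of only 6.08% and 2.31% of all peaks. GC skew on the strand of Ube3a was -0.77 in the first and -0.11 in the second. The shown stretches consist of A and G alone on the minus strand, opposite to Ube3a, while the peaks themselves carry no strand. As upstream of Peg3, the placement of reads in such repeats was not tested. This pair held the peaks just inside the limit of 10 kb. Just outside it, the next were at 18.4 kb from Meg3 and at 27.3 kb from Igf2r.

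**Figure D2:**
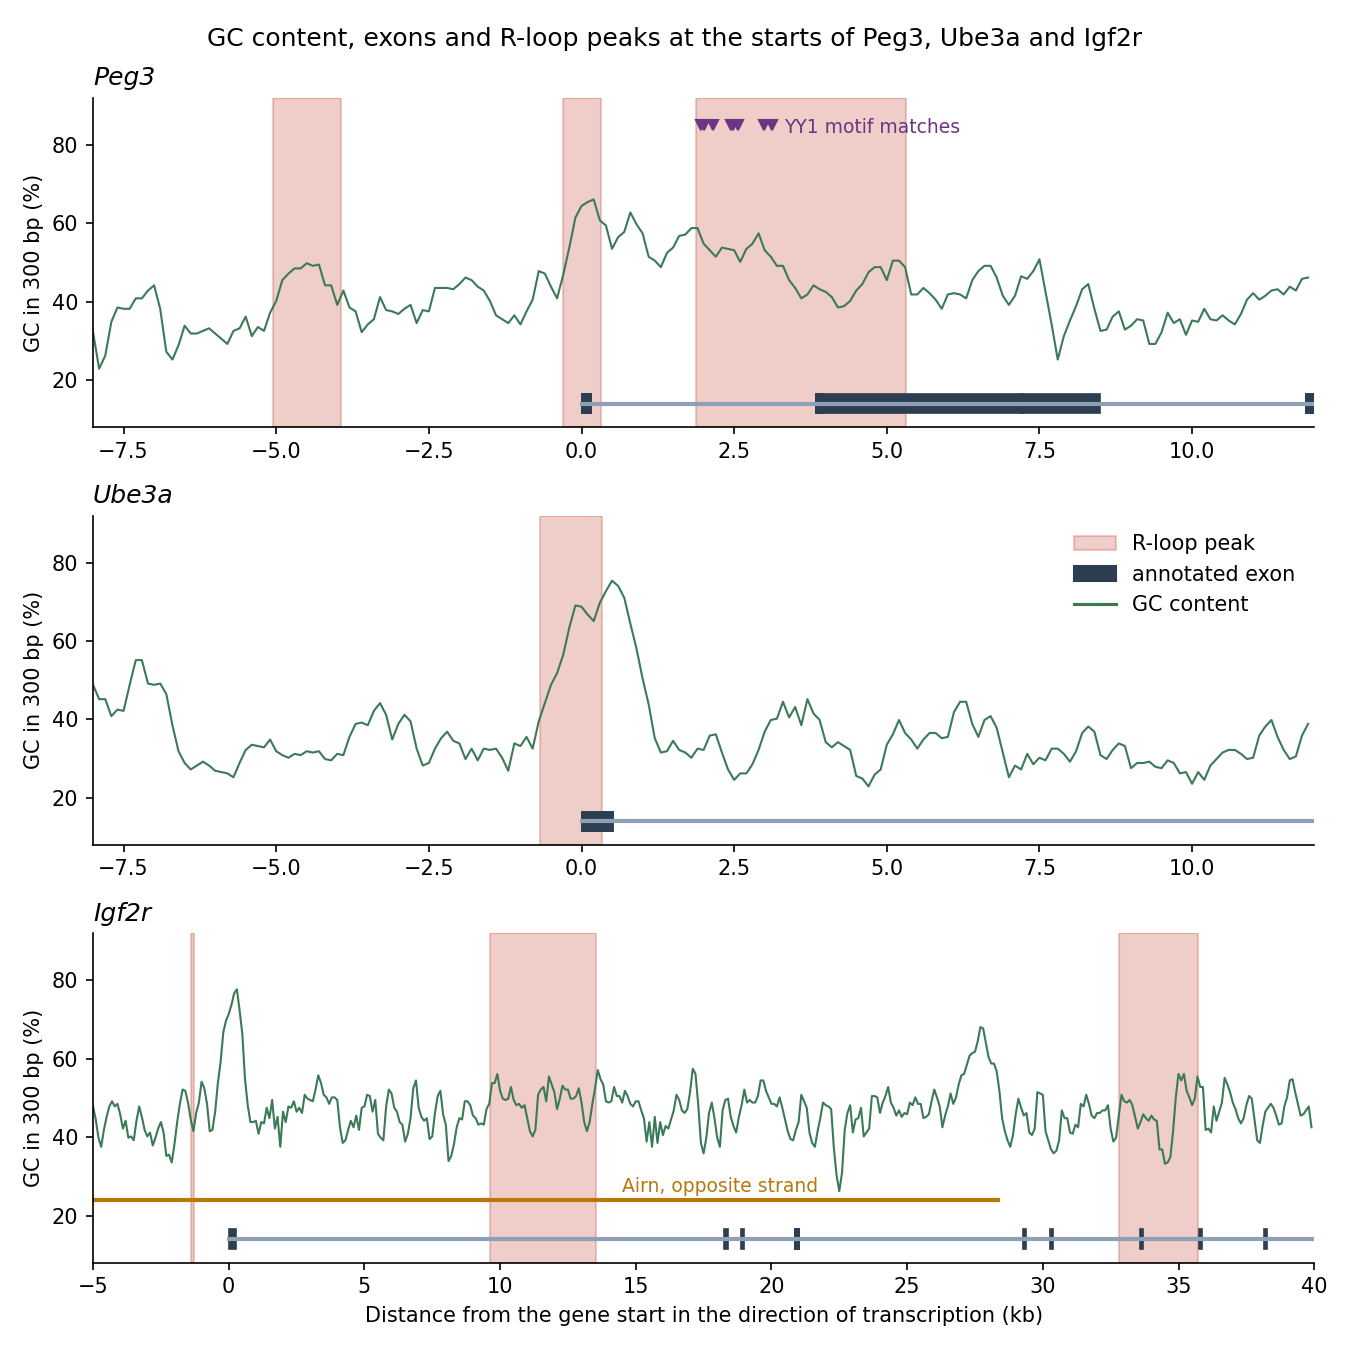
GC content in windows of 300 bp (y axis, percent) around the starts of Peg3, Ube3a and Igf2r (x axis, kb from the start in the direction of transcription), with R-loop peaks in red, exons of all annotated transcripts as dark boxes and the 8 YY1 matches of Peg3 as triangles. The peaks over the starts of Peg3 and Ube3a coincide with high GC content, although at Ube3a the maximum, 75.4% at 0.5 kb, lies past the peak. The GC-rich start of Igf2r and the local GC maximum at 27.7 kb, just inside Airn, lie outside the peaks.

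Igf2r encodes the receptor that removes the growth factor IGF2 and is expressed from the maternal copy (ENSMUSG00000023830, chr17:12875272-12962530, minus strand). The noncoding RNA Airn, which silences Igf2r on the paternal copy in many tissues, starts inside Igf2r on the opposite strand, 28.4 kb from its start and between exons 2 and 3. Neither start lay in a peak. The Igf2r start was 1.3 kb from its nearest peak and the Airn start 4.45 kb, although a CpG island lay within 1 kb of each.

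Inside Igf2r, the longer peak (chr17:12948996-12952919, 3.92 kb) lay in intron 1 of the 48-exon transcript Igf2r-001, from 9.61 to 13.5 kb after its start. This peak was also within Airn, 14.8 kb after the start of that transcript, so that the overlapping genes cannot be told apart as its source. The other peak (chr17:12926821-12929727, 2.91 kb) was 32.8 to 35.7 kb from the Igf2r start, outside Airn, and included exon 5 with parts of introns 4 and 5. Their GC contents of 49.3% and 46.1% were near the median of all peaks. Both had more G than C on the strand of Igf2r, with skews of 0.126 and 0.167. A fragment of 107 bp, the shortest peak of the 10 and shorter than all but 0.185% of peaks, lay 1.3 kb upstream of Igf2r and within Airn.

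Igf2, a fetal growth factor gene expressed from the paternal copy, and H19, a maternally expressed noncoding RNA, share a control region on distal chromosome 7. Neither gene held a peak. The nearest peak to Igf2 (ENSMUSG00000048583, chr7:149836673-149852721, minus strand) was a short one of 0.469 kb (chr7:149830409-149830877), 5.8 kb past its end and on the side of H19. H19 (ENSMUSG00000000031, chr7:149761434-149764048, minus strand) was 41.1 kb from its nearest peak downstream and 66.4 kb from the Igf2 peak upstream. The stretch without peaks around H19 measured 110.1 kb. All 4 RefSeq starts of Igf2 lay 12.5 to 21.8 kb from a peak, and a CpG island lay within 1 kb of 3 of them.

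Igf2 lay in a stretch of 340.2 kb without a peak, a length that 7.58% of all intervals between peaks reached. That share counts intervals, and long ones hold more of the genome, so it understates how often a gene lies in one. By distance, 64.5% of all genes lay farther from a peak than Igf2. The nearest peak upstream of the Igf2 start was 318.4 kb away. That peak was 15.9 kb from Ascl2. Farther on, peaks overlapped Tspan32, Cd81 and Tssc4, a gene of little known function that was covered completely by a peak of 7.61 kb. Cdkn1c (ENSMUSG00000037664, chr7:150644255-150646955, minus strand) encodes an inhibitor of cyclin-dependent kinases and is expressed from the maternal copy. The nearest peak was 54.1 kb upstream, in Nap1l4. The Cdkn1c start was GC-rich, with 66.2% GC within 1 kb to each side, and it had a CpG island without a peak.

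Kcnq1ot1 is a paternally expressed noncoding RNA that starts in an intron of Kcnq1, runs antisense to it and silences neighbours such as Cdkn1c. Its promoter window in RefSeq had 1 exact match on mm9, at chr7:150482403-150482702, which put the start at 150482452 on the minus strand, in intron 11 of an annotated Kcnq1 transcript. This start had a CpG island and no peak. It shared with Cdkn1c a stretch of 277.8 kb without peaks. Kcnq1 held 3 peaks, and those at 59.2 and 70.5 kb downstream of the Kcnq1ot1 start were the nearest. Both distances are shorter than the length of 83.4 kb that RefSeq gives this RNA on GRCm38, but its end was not placed on mm9 and these peaks were not counted for it.

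**Figure D3:**
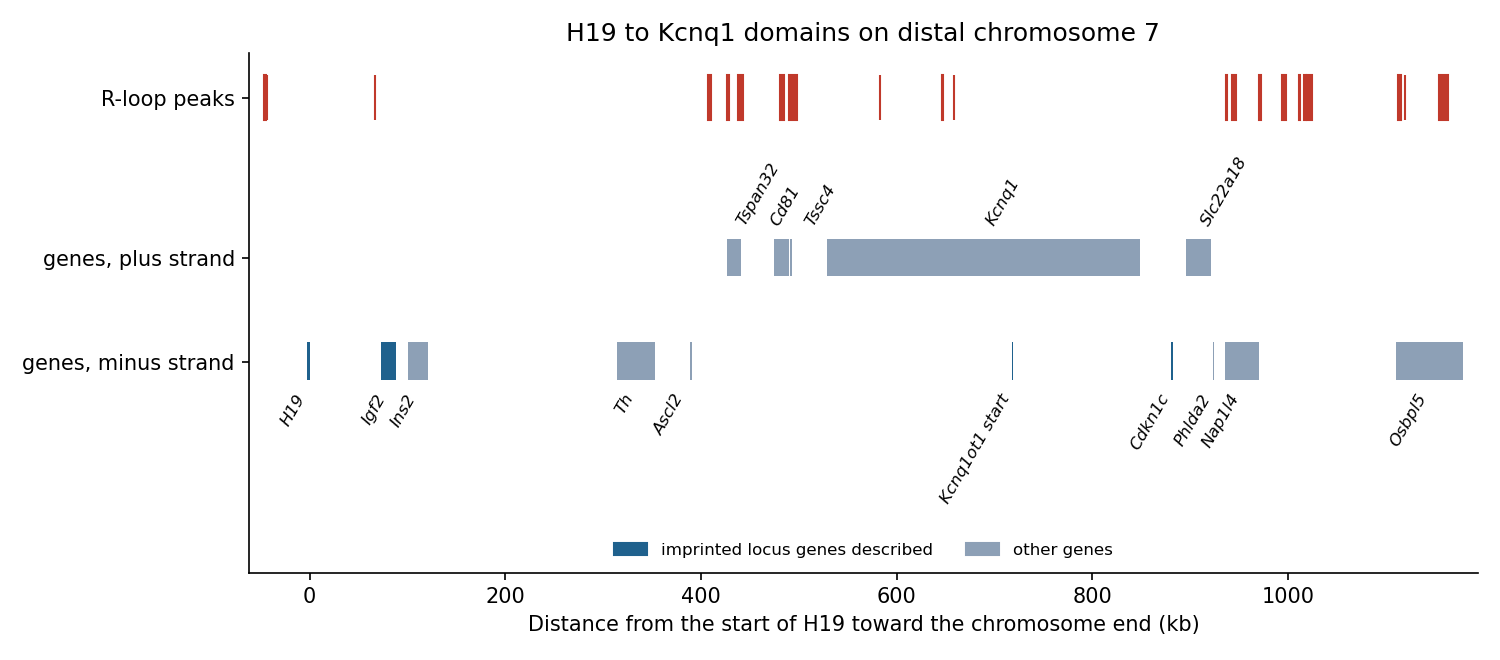
Map of distal chromosome 7 with genes by strand, R-loop peaks in red and distance from the start of H19 in kb (x axis). Peaks are grouped around Tspan32 to Tssc4 and around Nap1l4 to Osbpl5, and none lies at H19, in Igf2, at Cdkn1c or at the matched start of Kcnq1ot1.

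Snrpn, a paternally expressed gene for a splicing protein of neurons, was the farthest of the 9 genes from any peak (ENSMUSG00000000948, chr7:67127388-67285105, minus strand). Its nearest peak was 249.6 kb away, and 15.5% of all genes lay farther from a peak than this. It sat in a stretch of 1379955 bp without a peak (chr7:66877770-68257724), a length that 245 of the intervals between peaks (1.11%) reached. Since long intervals hold more of the genome, this share of intervals is not a share of genes. Unsequenced bases made up 3.62% of this stretch, and its GC content was 38%. RefSeq gives 4 starts for Snrpn, and these lay 272 to 663 kb from the nearest peak. The start at 67150085 had a CpG island within 1 kb, whereas the other 3 had none. The study itself used a region of Snrpn as the negative control when it measured R-loops by quantitative PCR.

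Ube3a, the gene of Angelman syndrome in humans, and Snrpn belong to one cluster and differed in this list. From Ube3a to Snrpn there were 5 peaks in 801 kb, or 6.24 peaks per Mb, compared to 10.7 per Mb over chromosome 7. Among the distant genes of the cluster, Mkrn3 had a peak of 1.06 kb that covered 41.4% of it. Atp10a, which follows Ube3a on the other side, had a peak of 6.04 kb over its start, while Magel2, Ndn and Peg12 were 37.0, 68.7 and 42.2 kb from their nearest peaks.

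Meg3, a maternally expressed noncoding RNA gene of the Dlk1 cluster (ENSMUSG00000021268, chr12:110779211-110809936, plus strand), had no peak in its 30.7 kb. The nearest one lay 18.4 kb downstream in Rtl1, a paternally expressed gene derived from a retrotransposon (chr12:110828371-110831129, 2.76 kb), and covered 24.8% of Rtl1. Upstream, the nearest was at 57.8 kb. Grb10 (ENSMUSG00000020176, chr11:11830511-11938686, minus strand) encodes an adaptor that dampens insulin and growth factor signalling and is imprinted in opposite ways in brain neurons and other tissues. Its 108 kb held no peak, and it lay in a stretch of 447.7 kb without one, a length that 5.58% of all intervals reached. By distance, 38.2% of all genes lay farther from a peak than Grb10. Neither of its 2 matched RefSeq starts had a peak, although 1 of them was in sequence of 80% GC over 300 bp. The nearest peak, at 54.3 kb, was in Ddc.

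The distances of the 6 genes without an overlapping peak ran from 5.8 kb for Igf2 over 18.4 kb for Meg3, 41.1 kb for H19, 54.1 kb for Cdkn1c and 54.3 kb for Grb10 to 249.6 kb for Snrpn. The median over the 27157 genes without a peak was 60.5 kb. Only Snrpn was above this median.

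**Figure D4:**
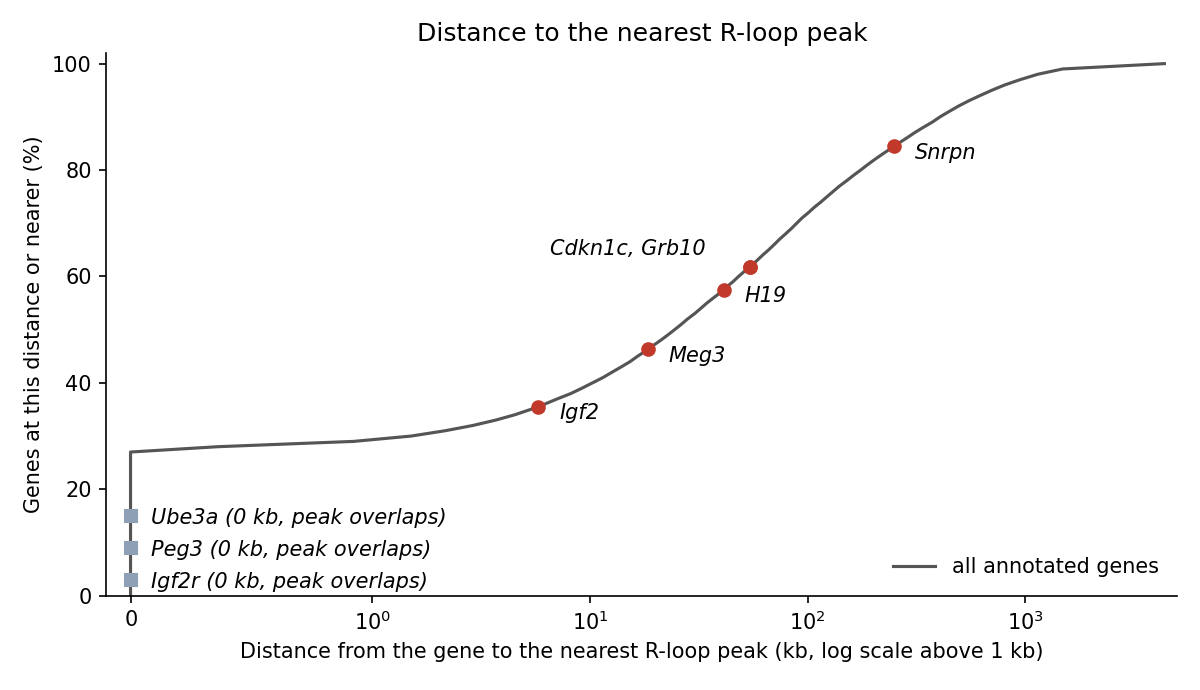
Cumulative share of all annotated genes (y axis, percent) by the distance to their nearest R-loop peak (x axis, kb, on a log scale above 1 kb), with the imprinted locus genes marked on the curve. Squares at 0 kb mark the 3 genes that overlap a peak, whose height has no meaning, and Snrpn is the farthest at 249.6 kb.

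The 10 peaks had a median size of 0.867 kb, compared to 1.32 kb over all peaks, and ranged from 0.107 to 3.92 kb. Those that overlapped a gene had a median of 2.91 kb and those within 10 kb of one 0.469 kb. Median GC contents were 47.3% over the 10 peaks and 48.7% over all peaks. A CpG island was found in 3 of the 10, compared to 35% of all peaks, and these were the peaks over the starts of Peg3 and Ube3a and the one in intron 1 of Igf2r. In the last, the observed over expected CpG of the whole peak was low, 0.204. None of the 5 peaks outside the genes held an island.

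**Figure D5:**
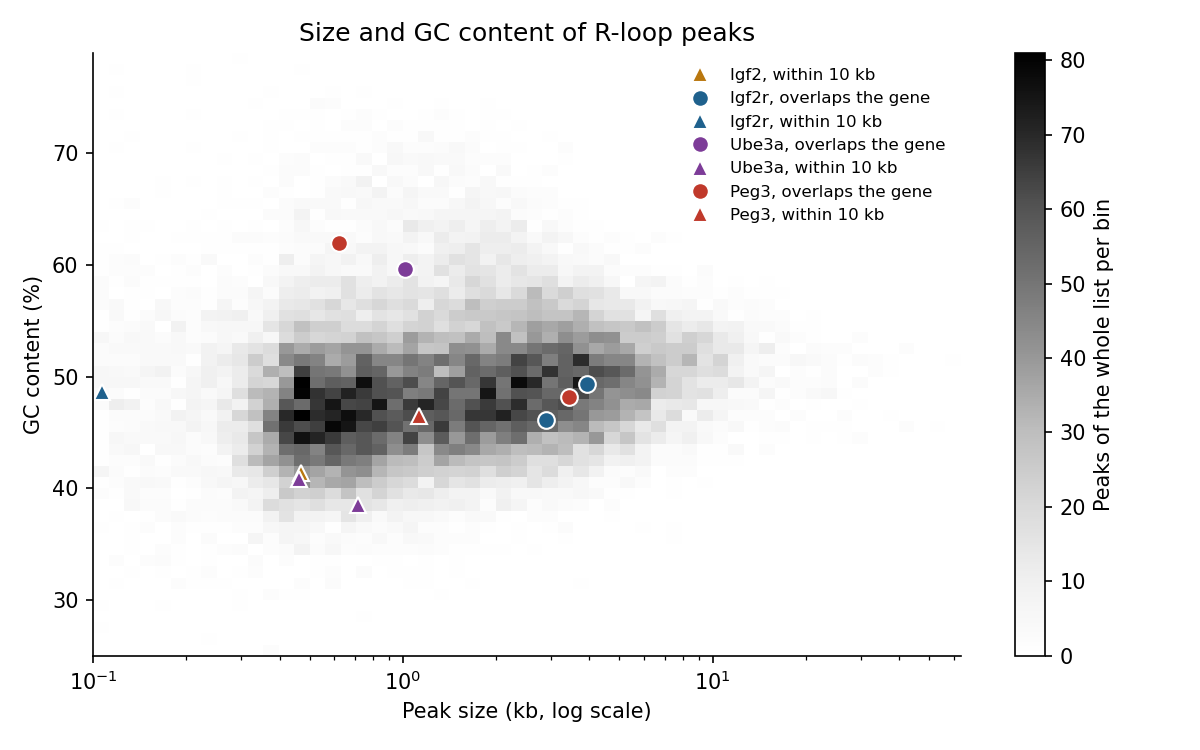
Size (x axis, kb, log scale) and GC content (y axis, percent) of the 10 peaks, as circles where they overlap a gene and as triangles where they lie within 10 kb, over the density of all 22132 peaks in grey. The peaks over the starts of Peg3 and Ube3a stand at 61.9 and 59.7% GC, and those downstream of Ube3a and Igf2 lie between 38.5 and 41.4%.

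Because the DNA was cut with EcoRI, HindIII, BsrGI, SspI and XbaI before precipitation, the position of the sites was compared with the peaks. Of the 20 edges of the 10 peaks, 4 (20%) were within 100 bp of a site, compared to 28.3% of the edges of all peaks. The restriction fragments that held the starts of the 9 genes measured 0.697 kb for Snrpn to 4.3 kb for Peg3, with 1.39 kb the median over all genes. Long fragments were found at starts with and without a peak, such as 2.95 kb at Ube3a, 3.94 kb at Cdkn1c and 3.79 kb at Meg3. Whether fragment length had a part in the recovery of these starts was not tested.

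Other genes of the same clusters were looked up for context. Of 30 listed, 28 were matched in GENCODE M1, and 14 of these 28 overlapped a peak, with 4 of them at their start, beside 27.1% and 11.0% of all annotated genes. Among 22367 protein-coding genes, 8858 overlapped a peak and 3325 had their start in one. Those with the largest share covered were Tssc4 at 100%, Mkrn3 at 41.4%, Tspan32 at 34.1%, Cd81 at 27.2% and Rtl1 at 24.8%. Over the clusters, peaks per Mb were highest from Zim1 to Usp29, the Peg3 cluster, at 17.3, and lowest from Ddc to Cobl, the Grb10 cluster, at 3.07. The autosomes had 8.83 per Mb, and chromosome 7, which holds the Peg3 cluster, had 10.7. These rates rest on few peaks, 5 in 288 kb, with the 3 at Peg3 among them, and 2 in 651 kb. By share of bases covered, the stretch from Igf2 and H19 to Cdkn1c was higher, with 2.71% beside 2.49% for the Peg3 cluster. Both shares were below the 2.89% of chromosome 7, on which they lie, and above the 1.96% of the autosomes. Genes that mark neural progenitors overlapped a peak in 7 of 10 cases, all but Pax6, Fabp7 and Hes5, and those of other cell types in 2 of 8, Pecam1 and Mbp, beside 27.1% of all genes. The list holds no expression values, and its peaks cannot show which cells were present.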

How the data were processed

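DRIP-seq was run on NSPCs of 3 biological replicates. The authors trimmed reads (Trim Galore 0.6.6 in the submitters' processing notes), aligned them to mm9, discarded duplicates and used a Hidden Markov Model to find peaks. They deposited 1 list of peak positions in base pairs, without scores. How replicates were combined is not given in the sources used here. The depth is unknown.

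Peaks were compared with GENCODE M1 genes on chromosomes 1 to 19, X and Y. CpG islands were windows of at least 200 bp with GC over 50% and observed over expected CpG over 0.6. RefSeq promoters of GRCm38 were placed on mm9 by exact match of their 300 bases, and none was found here for H19 and Cdkn1c. Python 3.11.15, numpy 2.4.6 and matplotlib 3.10.9 were used. The sequence at Igf2 is not reported here. The interval steps were tested on simulated data.

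The 10 genes and the further lists were chosen with earlier results of these data known. All 10 are named, with listed genes that share or lie nearest to a peak and the 5 of each list with the largest share covered. Further genes named from the lists and markers, such as Atp10a, Magel2, Ndn, Peg12, Ascl2, Pax6, Fabp7, Hes5, Pecam1 and Mbp, were chosen after their values were seen, as were the motifs of YY1 and ZFP57. Alternatives were peaks of at least 1 kb, merged peaks, other flanks and other gene limits.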

Additional observations from a re-analysis of the deposited data

How the results depend on the processing

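Of 22 recomputed summary values, 19 stayed within 1.5 times the reported one. The 3 exceptions concern short or flanking peaks. With only peaks of at least 1 kb, the peaks in or within 10 kb of the genes fell from 10 to 5, and the starts in a peak from 2 to 1, since the peak over the Peg3 start is shorter than 1 kb. With 2 kb to each side there were 6 peaks. The genes that overlap a peak stayed at 3 except with the peak midpoint required inside the gene (2). The median share covered was 0 under every alternative run. Since most of the genes overlap no peak, this median could hardly move under those settings, and its values are among the 19. Counts for single genes were recomputed under settings chosen after seeing the data, and 30 of 36 stayed within the same limit. Part of these were fixed in advance. For genes without a peak in or within 10 kb, narrower flanks or a minimum peak size can only return 0. Igf2 lost its peak with 2 kb to each side or with peaks of at least 1 kb, and Ube3a kept 1 of 3 under either setting. With 50 kb to each side, H19 had 2 peaks and Meg3 1. No paired analysis was possible because 1 list without replicates was analysed, so that no replicate could be left out. An absent peak means that none was called, and depth and repeat content at these genes were not measured.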

Other observations

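Imprinted genes of other clusters, not described above, were looked up in the same list. Of 30 listed, 29 were matched, and 15 of these 29 overlapped an R-loop peak, with 5 at their start. A single peak of 8.11 kb (chr2:157382668-157390778) covered all of Nnat, a paternally expressed gene for a membrane protein of developing brain that lies within Blcap, and it covered 54.4% of Blcap. H13, which encodes a signal peptide peptidase, had 3 peaks over 35.9% of its length, and Mcts2, a retrogene inside H13, lay 3.47 kb from one. Gnas, the gene of the stimulatory G protein subunit with several imprinted promoters, had 7 peaks that covered 24.5% of it, the largest number among these genes. Impact, a regulator of translation, had 10.2% of its length covered by 1 peak. The peak at the 3′ end of Mest (chr6:30697184-30700066, 2.88 kb) was also the peak at the end of Copg2, where the genes converge. The start of Nap1l5, a retrogene within an intron of Herc3, was covered by a peak of 0.753 kb. Over all annotated genes, 27.1% overlapped a peak, as did 8858 of 22367 protein-coding genes. The difference from these listed genes was not tested.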
